A study of Homo sapiens with 7 samples.

Results

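The globin genes encode the protein chains of haemoglobin. The 10 genes described here are the coding members of both human globin gene clusters, HBE1, HBG1, HBG2, HBB and HBD of the beta cluster and HBZ, HBA1, HBA2, HBM and HBQ1 of the alpha cluster, taken by symbol from 62238 genes with counts. Haemoglobin carries oxygen as a tetramer of paired alpha-like and beta-like chains, each around a haem group. In humans the beta-like genes are used in the order of their position, first HBE1 in the embryo, then HBG1 and HBG2 in the fetus and then HBB and HBD, and the alpha-like genes pass from HBZ to HBA1 and HBA2. High expression marks the erythroid lineage, which shares a progenitor with the megakaryocytes, and cultured leukemia lines of this branch often keep embryonic and fetal globin.

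The RNA was from cultured MEG-01 cells, a long-established line from a human megakaryoblastic leukemia, in which the RNA-binding protein RBM15 was knocked down. There were 3 RNA-seq libraries, 1 of control cells and 1 each of cells carrying the shRNAs shRBM15#1 and shRBM15#2. All 3 carried a lentiviral transgene and were taken at passage 5 in exponential growth in RPMI-1640 with 10% FBS, so that the controls too were transduced cells. Immunoprecipitated RNA of the same line, with normal IgG or with an antibody against RBM15, is used here only for the positions of RBM15 sites and for a check of its labels. Each library had 41629454 to 53230029 counts on exon bins, the non-overlapping pieces into which the exons of a gene are divided. RBM15 itself had 80.2 CPM (counts per 1e06 reads of the normalised library size) in the control, 43.7 CPM with shRBM15#1 and 40.7 CPM with shRBM15#2, a log2 fold change of -0.93 ± 0.23 (SE, edgeR adjusted p = 0.091). The labels do not say whether the knockdown lines were clones or pools. With 1 control, every fold change shares that library, the spread is that between both knockdown lines only, and a difference between this control culture and other control cultures cannot be told apart from the knockdown.

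Reads on the 10 globin genes made up 0.113% of the reads on bins in the control, 0.802% for shRBM15#1 and 0.710% for shRBM15#2. Their summed level was 1215 CPM in the control, 7462 CPM with shRBM15#1 and 7139 CPM with shRBM15#2, which is 6.14-fold and 5.88-fold the control. Of the 10 genes, 8 reached the summed count of 30 needed for a test, and HBZ and HBM did not. HBE1, HBG1, HBG2 and HBA2 rose at an adjusted p under 0.01, which is 4 of 8, while 0.0683% of all 24887 genes tested were called higher at this limit and 0.277% lower. HBA1 rose as well at an adjusted p under 0.05, so that 5 of 8 passed this wider limit, against 0.534% of all genes. In 2 alternatives, the test was limited to genes whose counts summed to 300 or more, or the bin with the most reads stood for each gene. In both, 0 of the globin genes passed 0.01, as did 0 of all genes. At 0.05, 238 of 12994 and 119 of 19286 genes passed in either direction, among them 5 globin genes in both cases. The same 5 genes were at least 2-fold above the control in both lines, as were 11.9% of all genes. No tested globin gene fell. In bulk RNA, more cells that express a globin and more globin RNA per cell cannot be told apart.

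**Figure D1:**
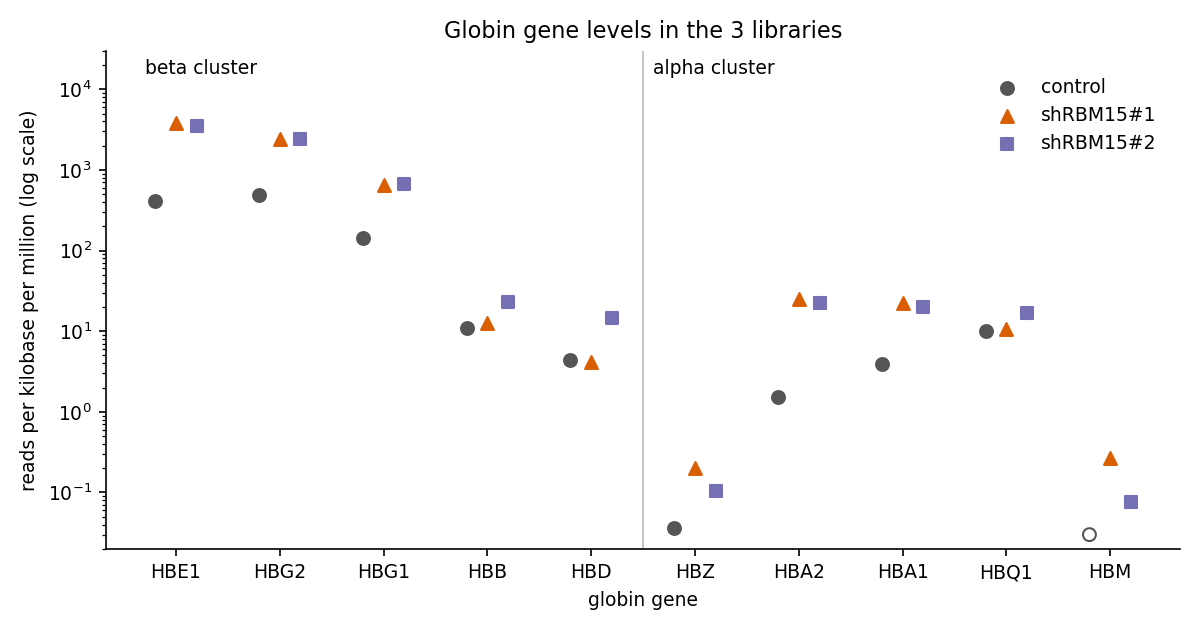
RPKM (log scale) of the 10 globin genes in the 3 libraries, 1 point a library and no error bar. The open circle for HBM stands for 0 reads in the control. HBE1, HBG2 and HBG1 lie far above the other genes in all libraries, and the knockdown points of HBE1, HBG1, HBG2, HBA1 and HBA2 lie close together and above the control point.

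HBE1, the embryonic beta-like gene, is on chromosome 11 from 5289582 to 5303181 (GRCh37). The control library held 17934 HBE1 reads, the shRBM15#1 library 148886 and the shRBM15#2 library 157643. As CPM these were 362, 3326 and 3021, so both knockdown lines lay far above the control and close to each other. The level rose 9.18-fold and 8.34-fold, with a log2 fold change of 3.13 ± 0.26 (SE, adjusted p = 0.0020). Per length, HBE1 stood at 416 RPKM (CPM per kilobase of exon bins) in the control and was the gene of rank 113 among 43573 genes with reads. With the shRNAs it stood at 3814 and 3465 RPKM and took ranks 9 and 10.

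The fetal genes HBG2 and HBG1 encode gamma chains that differ little in sequence. Control cells had 707 CPM of HBG2, and the lines with shRBM15#1 and shRBM15#2 had 3541 and 3488 CPM. Its log2 fold change was 2.31 ± 0.25 (SE, adjusted p = 0.0049). HBG1 had 116 CPM in the control, 529 CPM with shRBM15#1 and 539 CPM with shRBM15#2, and its log2 fold change was 2.21 ± 0.25 (SE, adjusted p = 0.0055). Both fetal genes thus rose 4.57-fold to 5.01-fold in each line. The ratio of HBE1 to HBG2 reads was 0.512 in the control, 0.939 for shRBM15#1 and 0.866 for shRBM15#2.

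The adult alpha-like genes HBA2 and HBA1 lie next to each other on chromosome 16, HBA2 from 222846 to 223709 and HBA1 from 226679 to 227521. The 65 HBA2 reads of the control compared with 949 for shRBM15#1 and 999 for shRBM15#2, which is 1.31, 21.2 and 19.1 CPM. Its rise, 3.94 ± 0.37 on the log2 scale (SE, adjusted p = 0.0032), had the highest estimate of the 8 genes. HBA1 had 160, 827 and 877 reads, or 3.23, 18.5 and 16.8 CPM, and a log2 fold change of 2.45 ± 0.34 (SE, adjusted p = 0.013). In level both remained low. Per length, HBA2 and HBA1 stood at 20.1 to 24.8 RPKM in the knockdown lines, against 654.9 to 3814 RPKM for HBE1, HBG2 and HBG1. By the bin with the most reads these were 52.5 to 71.7 RPKM against 1305 to 7355 RPKM. Reads on the beta cluster outnumbered those on the alpha cluster 121-fold in the control, 163-fold for shRBM15#1 and 157-fold for shRBM15#2. Few reads were counted on exons 1 and 2 of HBA1 and HBA2, as described further on, so these ratios may be too high.

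The adult beta-like genes HBB and HBD encode the beta chain of the main adult haemoglobin and the delta chain of its minor form. For HBB, 711 reads were counted in control cells, 729 for shRBM15#1 and 1555 for shRBM15#2, giving 14.4, 16.3 and 29.8 CPM. Its fold change did not pass the test, with a log2 value of 0.68 ± 0.38 (SE, adjusted p = 0.37). HBD had 233, 196 and 800 reads, or 4.71, 4.38 and 15.3 CPM, and a log2 fold change of 1.07 ± 0.64 (SE, adjusted p = 0.40). Only the shRBM15#2 library stood above the control in HBD, and without it the log2 value was -0.10. HBQ1, the theta globin gene at the end of the alpha cluster, had 267, 255 and 472 reads, or 5.40, 5.70 and 9.05 CPM, and a log2 fold change of 0.45 ± 0.39 (SE, adjusted p = 0.58). These 3 genes parted the lines. The level with shRBM15#2 over that with shRBM15#1 was 1.83 for HBB (95% exact interval 1.67 to 2.00), 3.50 for HBD (2.99 to 4.12) and 1.59 for HBQ1 (1.36 to 1.86). These intervals cover counting error only, and a read that touched several bins was counted on each of them, so they are too narrow. A ratio of at least 1.5 was found in 3 of the 8 globin genes and in 8.82% of all genes. With 1 library a line, the difference between the lines has no test.

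HBZ, the embryonic alpha-like gene, had 1 control read, 5 reads for shRBM15#1 and 3 for shRBM15#2. HBM, the mu globin gene, had 0, 6 and 2 reads, and the 0 in the control allows up to 3 reads or 0.0606 CPM. Neither could be tested. More genes had at least 1 read with shRBM15#1, 51086, and with shRBM15#2, 48339, than in the control, 43573. Lines that name no gene held 32.0% of all counts with shRBM15#1, against 23.2% in the control and 23.5% with shRBM15#2. The part of these differences in the low values was not tested. Of the embryonic genes, HBE1 was thus among the most abundant RNAs of the knockdown lines, and few reads were counted on HBZ. Of the 50-base windows of the 2 HBZ bins, 54.6% and 39.9% occurred elsewhere in the genome. The counted level of HBZ may therefore be too low, which was not tested.

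The RefSeq promoter table (GRCh38.p14) matched 2 of the 10 genes, HBD and HBM. The lines disagreed in HBD, and HBM had too few reads for a test. The 250 bases before each transcript start are given in lower case, because the letters that erythroid factors and general promoter factors are known to bind can be seen in them. Capitals mark each match, on either strand, of the CCAAT box, the letters CACCC bound by Kruppel-like factors, the letters GATAA bound by GATA factors and the TATA-like letters ATAAA. HBD is at chr11:5234484-5234733 on the minus strand and HBM at chr16:165728-165977 on the plus strand.
HBD: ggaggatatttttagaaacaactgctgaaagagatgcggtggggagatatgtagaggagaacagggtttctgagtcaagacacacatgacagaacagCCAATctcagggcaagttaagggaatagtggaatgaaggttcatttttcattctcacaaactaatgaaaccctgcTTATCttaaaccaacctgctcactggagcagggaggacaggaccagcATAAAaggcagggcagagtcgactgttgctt
HBM: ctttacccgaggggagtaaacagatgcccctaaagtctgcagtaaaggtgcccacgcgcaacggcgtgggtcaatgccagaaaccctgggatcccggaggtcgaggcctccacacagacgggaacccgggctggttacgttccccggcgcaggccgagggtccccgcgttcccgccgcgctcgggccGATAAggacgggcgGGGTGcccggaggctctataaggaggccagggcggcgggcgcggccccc
In HBD, CCAAT began 153 bases before the start, GATAA on the other strand 78 bases and ATAAA 31 bases before it, and CACCC was not found. Nearer the start, after TTATC, the HBD sequence reads ccaac, which is not a match. In the HBM promoter, GATAA began 63 bases and CACCC on the other strand 49 bases before the start. Neither the letters CCAAT nor the letters ATAAA were found there. The TATA-like letters TATAA, which were not searched for and are not marked, do occur in the HBM sequence. Of 35116 promoters of the same length, 32.0% held CCAAT, 54.7% held CACCC, 20.4% held GATAA and 32.7% held ATAAA, on either strand. A match is a description of the letters only.

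Levels per length were next ordered among the globin genes. In the control the order was HBG2, HBE1, HBG1, HBB, HBQ1, HBD, HBA1, HBA2 and HBZ, with HBM at 0, and the highest value was 485 RPKM for HBG2. In both knockdown lines HBE1 came first, followed by HBG2 and HBG1. HBA2 and HBA1 moved up from 1.53 and 3.87 RPKM in the control, at the lower end, to 22.4 to 24.8 RPKM for HBA2 and 20.1 to 22.1 RPKM for HBA1 in the knockdown lines. HBB had 12.5 RPKM with shRBM15#1, below both alpha genes, and 22.9 RPKM with shRBM15#2, slightly above both. These places of the alpha genes depended on the measure. By the bin with the most reads, HBB with shRBM15#2 stood at 44.2 RPKM, below HBA2 at 52.5 and HBA1 at 65.1 RPKM. In the control, HBA1 by that bin had 12.6 RPKM, above HBQ1 at 11.8 and HBD at 9.05 RPKM. The place of HBE1 above HBG2 rested on the gene models. The model of HBG2 holds 3 exons far upstream, reaching to position 5667019, with 0 to 7 reads each, which add to its length. When only the bin with the most reads stood for each gene, HBG2 was above HBE1 in all 3 libraries, with 7355 against 6429 RPKM with shRBM15#1. That bin of HBG2 is exon 2, on which, as described further on, the reads of HBG1 were recorded as well, so it stands for both fetal genes. Exon 3 differs more between the fetal copies than exon 2, but part of it is shared, as described further on. Its bin with the most reads had 653 RPKM in HBG2 and 422 RPKM in HBE1 in the control. These values were 3351 and 3807 RPKM with shRBM15#1, and 3170 and 3426 RPKM with shRBM15#2. HBE1 was thus above HBG2 on exon 3 in both knockdown lines and below it in the control, as over the whole genes.

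The reads of each cluster were divided by stage of expression. In the beta cluster, embryonic HBE1 held 30.1% of reads in the control (95% Wilson interval 29.7% to 30.5%), 44.8% with shRBM15#1 (44.7% to 45.01%) and 42.6% with shRBM15#2 (42.4% to 42.8%). The fetal genes held 68.3% of reads in the control and 54.9% and 56.8% with the shRNAs, although their own level in CPM rose. The adult genes HBB and HBD held 1.58%, 0.279% and 0.636%. The embryonic share of the knockdown lines averaged 43.7% ± 1.59 (SD, n = 2), so the distance to the control was several times the spread between the lines. An exact permutation test of 1 against 2 libraries cannot give a p below 0.333, and none was run. In the alpha cluster, the adult genes HBA1 and HBA2 held 45.6% of 493 reads in the control (41.3% to 50.1%), 87.0% of 2042 reads with shRBM15#1 (85.4% to 88.4%) and 79.7% of 2353 reads with shRBM15#2 (78.1% to 81.3%). HBM and HBQ1, nearly all of it HBQ1, held 54.2%, 12.8% and 20.1%. Which of them led in the control depended on the measure. By the bin with the most reads of each gene, HBA1 and HBA2 led there with 60.5%, against 39.2% for HBM and HBQ1. Per kilobase of exon bins they held 34.9% against 64.9%. In the knockdown lines HBA1 and HBA2 led by every measure, with 91.4% and 86.2% by the most-read bins. Few reads were counted on exons 1 and 2 of HBA1 and HBA2, so their whole-gene shares may be too low. The intervals cover counting error only, and a read that touched several bins was counted on each of them, so they are too narrow.

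**Figure D2:**
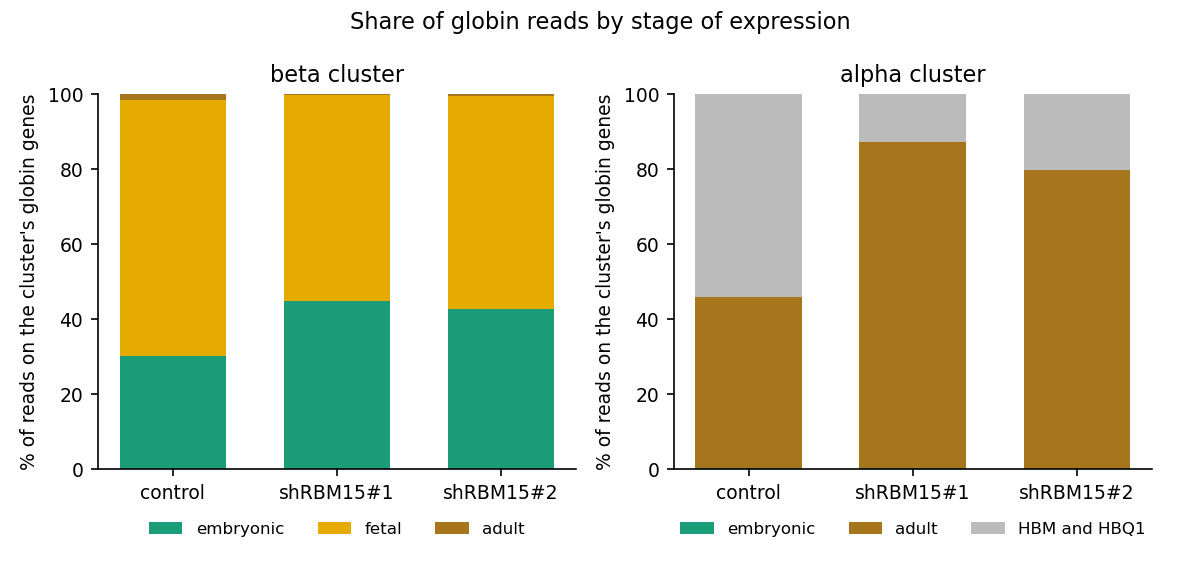
Percent of the reads on the globin genes of the beta cluster (left) and alpha cluster (right) by stage of expression, 1 stacked bar a library. In the beta cluster the embryonic share is 30.1% in the control and 44.8% and 42.6% with the shRNAs. In the alpha cluster the adult genes take 45.6% in the control and 87.0% and 79.7% with the shRNAs, and the embryonic share is too small to be seen.

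In summed CPM, the fetal genes stood at 4.94-fold and 4.89-fold of the control with shRBM15#1 and shRBM15#2, below the values of HBE1, and the adult alpha genes at 8.73-fold and 7.91-fold. HBB and HBD together stood at 1.08-fold of the control with shRBM15#1 and 2.37-fold with shRBM15#2.

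How far the paired copies can be told apart was examined along their exons. In GRCh37, 222 of the 223 bases of exon 2 are the same in HBG1 and HBG2, and all 175 bases of exon 1 next to the splice site are the same. Yet HBG2 exon 2 had 16786 control reads, 73423 reads for shRBM15#1 and 84345 for shRBM15#2, while HBG1 exon 2 had 2, 23 and 40. On exon 1, HBG1 had 0, 0 and 1 reads, and the bin of HBG2 next to the splice site had 5544, 25837 and 30274. Reads of these near-identical exons were thus recorded almost wholly on HBG2. On exon 3, 212 of the 216 bases next to the splice site are the same. Of its 50-base windows, 27.5% in HBG2 and 12.9% in HBG1 occurred elsewhere in the genome, so some reads could also be placed on either copy. Exon 3 counts of the copies were even, with 6040 reads on HBG2 and 5728 on HBG1 in the control. With shRBM15#1 they were 28050 and 23666, and with shRBM15#2 30925 and 28082. The HBG2 share of exon 3 reads was 51.3% in the control (95% Wilson interval 50.4% to 52.2%), 54.2% with shRBM15#1 (53.8% to 54.7%) and 52.4% with shRBM15#2 (52.0% to 52.8%), over bins of 187 and 405 bases. Over the whole genes HBG2 had 6.11, 6.69 and 6.47 times the reads of HBG1. The level of HBG2 above HBG1 in gene counts is therefore uncertain, whereas on exon 3 alone both were higher than the control in each line, with log2 fold changes of 2.36 and 2.28 for HBG2 and of 2.19 and 2.22 for HBG1.

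In the alpha genes, the reads of exon 2 also lay almost wholly on 1 copy, but they were few. All 205 bases of exon 2 are the same in HBA1 and HBA2, and HBA2 had 5, 111 and 122 reads on it, against 0, 1 and 1 on HBA1. Exon 3, which ends in the 3'UTR, differs at 19 bases and 1 gap over 240 bases. Of its 50-base windows, 49.2% in HBA1 and 49.5% in HBA2 occurred elsewhere in the genome, so some reads could also be placed on either copy. On exon 3 HBA1 had 148 control reads, 764 for shRBM15#1 and 808 for shRBM15#2, and HBA2 had 37, 528 and 559. Unlike in HBG2, exon 2 thus had far fewer reads than exon 3 in both alpha copies. The CPM and RPKM of HBA1 and HBA2 over the whole genes may therefore be too low, and the cause was not tested. The HBA2 share of exon 3 reads was 20% in the control (14.9% to 26.3%) and 40.9% in both knockdown lines (38.2% to 43.6% and 38.3% to 43.5%). The log2 fold changes on exon 3 alone were 3.98 and 3.84 for HBA2 and 2.51 and 2.37 for HBA1. The intervals of these shares cover counting error only, the control share rests on 37 HBA2 reads of 1 library, and the difference has no test. HBE1 has no such copy. None of the 50-base windows of its 3 main exons occurred elsewhere in the genome, against 71.3% of those of exon 2 in HBG1 and 86.6% of those of exons 1 and 2 in HBA1 with the stretch between them.

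**Figure D3:**
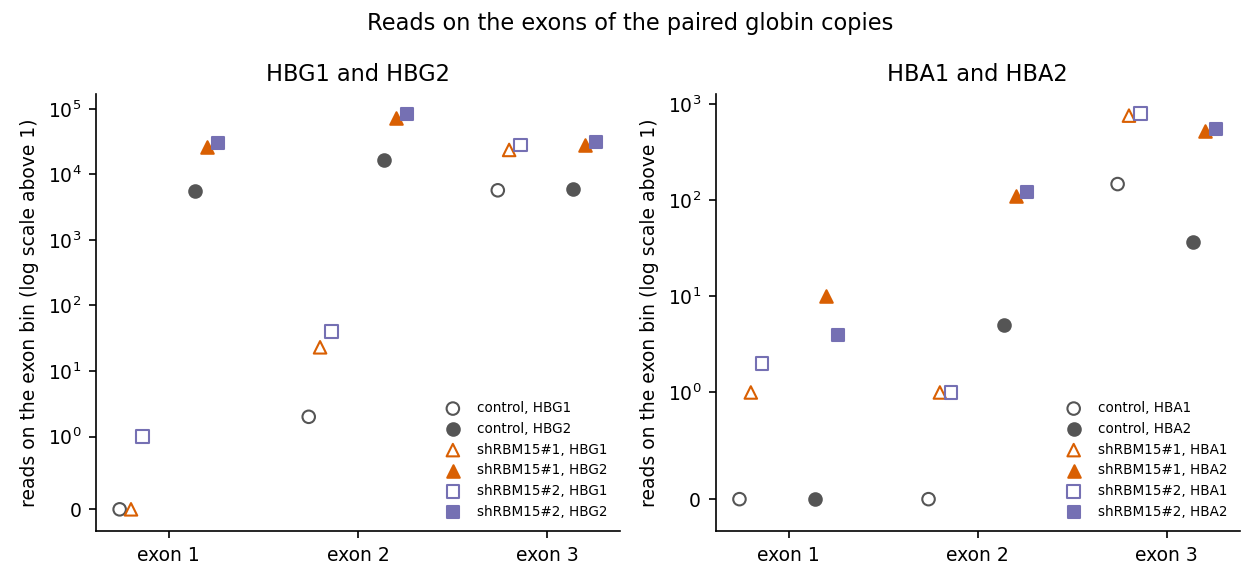
Reads on an exon bin (log scale above 1, linear below) for HBG1 and HBG2 (left) and HBA1 and HBA2 (right) in the 3 libraries, with open symbols for HBG1 and HBA1 and filled symbols for HBG2 and HBA2. For exon 1 the bin next to the splice site is plotted for HBG1 and HBG2 and the bin of 49 bases for HBA1 and HBA2, and for exon 3 the bin with the most reads. The copies differ by orders of magnitude on exons 1 and 2 of the gamma genes and meet on exon 3.

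Exon usage within the globin genes was compared as the change of each bin relative to its gene. Of the 70 bins of the 10 genes, 37 in 8 genes had a summed count of at least 30. By the limits of the study, an unadjusted p under 0.05 and a fold over 1.2, 0 of these 37 were called, against 1.45% of all 234192 bins. At an adjusted p under 0.05 the count was also 0, against 0.0205% of all bins. The lowest p of a globin bin, 0.061, was that of HBG1 exon 2, whose 2, 23 and 40 reads are described above. With all bins that had at least 1 read, 2 of 69 globin bins met the limits of the study, against 8733 of all 494487 bins. With a model in DESeq2 like that of DEXSeq, 2 of 37 met them, against 5174 of all 234192. By adjusted p, 0 globin bins passed in either case. In HBE1 the bins moved with the gene, and the relative log2 change of its 5 tested bins was at most 0.070 in size.

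The fold changes of the beta cluster are given here in the order of its genes. The differences between genes were not tested. HBB and HBD, at one end, did not pass the test, HBG1 and HBG2 rose 4.57-fold to 5.01-fold, and HBE1, at the other end of the 56.5 kb, rose 8.34-fold to 9.18-fold. Between HBD and HBG1 lie the pseudogene HBBP1 and the noncoding RNA gene BGLT3. HBBP1 had 75.3 CPM in the control, 209.95 CPM with shRBM15#1 and 272 CPM with shRBM15#2 (log2 fold change 1.68 ± 0.27, SE, adjusted p = 0.021), so that this pseudogene had more reads than HBB in every library. BGLT3 had 1.21, 4.91 and 5.56 CPM (adjusted p = 0.0499). They are 2 of a list of 8 other globin family genes and pseudogenes, of which 4 could be tested and these 2 passed an adjusted p of 0.05. The remaining tested genes, CYGB with 3, 17 and 12 reads and ADGB with 54, 67 and 98 reads, did not. Outside the cluster, the neighbours within 250 kb were mostly olfactory receptor genes with few reads. Of 34 such neighbours with a symbol, 4 could be tested and 0 passed an adjusted p of 0.05 with edgeR, while 1 had an unadjusted p under 0.05 and 0 passed an adjusted p of 0.01 with DESeq2. Outside the 28.5 kb alpha cluster, 18 of 20 neighbours could be tested and 0 passed either limit with edgeR. Of these, 4 (22.2%) had an unadjusted p under 0.05, close to the 18.8% of all genes, and 0 passed an adjusted p of 0.01 with DESeq2. NPRL3, whose introns hold the main alpha-globin enhancers, had 13.5, 14.9 and 11.8 CPM, and LUC7L on the other side had 48.6, 56.2 and 58.8 CPM. The median log2 fold change of these 18 genes was 0.21, against 0.017 over all genes.

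**Figure D4:**
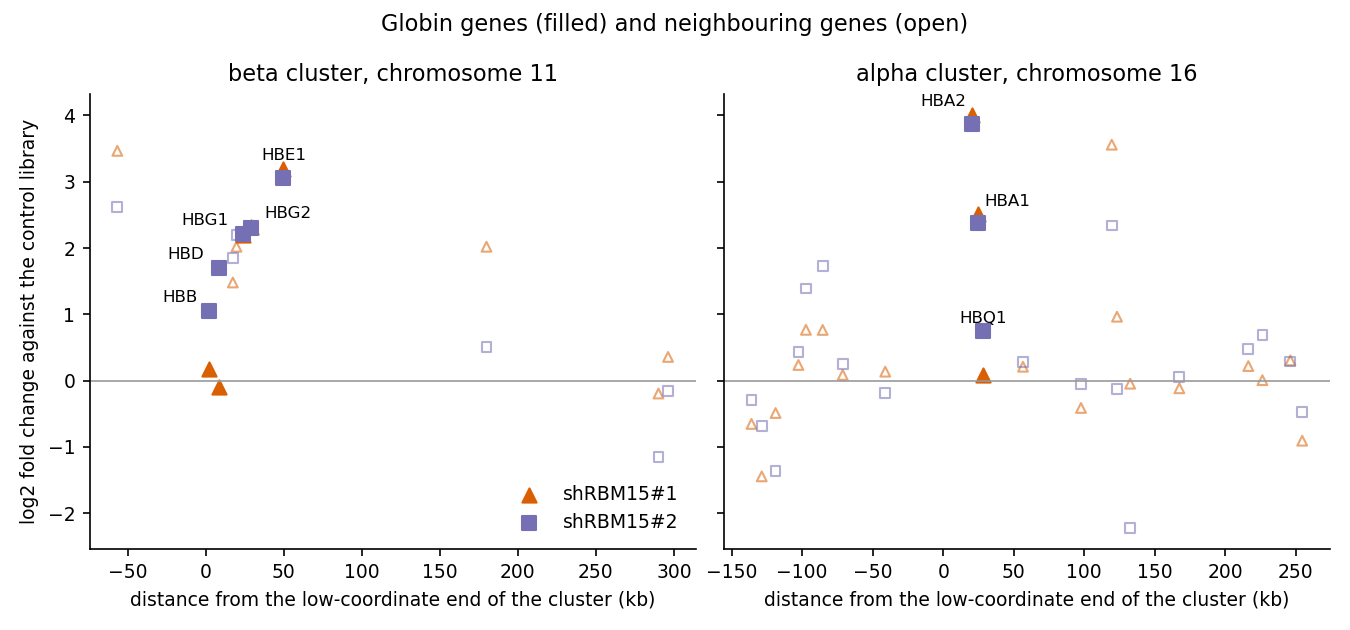
Log2 fold change of CPM in each knockdown line against the control library, for tested globin genes (filled, named) and tested neighbours within 250 kb (open), by the distance of the gene's middle from the end of the cluster with the lower coordinate. In the beta cluster the shRBM15#2 values climb from HBB at 1.05 to HBE1 at 3.06, whereas with shRBM15#1 HBD at -0.10 lies below HBB at 0.18 before the values climb to HBE1 at 3.20, and in the alpha cluster HBA2 and HBA1 stand above nearly all neighbours.

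Genes known to regulate globin were examined as a list of 38, all of which could be tested. With edgeR none passed an adjusted p of 0.01, 9 (23.7%) had an unadjusted p under 0.05 against 18.8% of all genes, and 1 passed an adjusted p of 0.05, the cohesin subunit gene RAD21, which fell by 1.18 on the log2 scale (adjusted p = 0.037). With DESeq2, 1 of the 38 passed an adjusted p of 0.01, against 3.43% of the 15719 genes to which DESeq2 gave an adjusted p. Their median log2 fold change was -0.02, with 19 above and 19 below 0. Among the activators and looping factors, KLF1, the erythroid Kruppel-like factor, had 52.2 CPM in the control and 116 and 94.0 CPM with the shRNAs (adjusted p = 0.096), TAL1 had 236, 347 and 399 CPM (adjusted p = 0.19) and GATA1 had 71.7, 64.2 and 66.0 CPM (adjusted p = 0.78). Among the 20 repressors of fetal globin and their cofactors, MYB, which keeps progenitors cycling, had 388 CPM in the control and 159 and 237 CPM with the shRNAs (adjusted p = 0.12). The most abundant of them were the chromatin remodeller CHD4, with 649, 469 and 557 CPM, and the DNA methyltransferase DNMT1, with 537, 482 and 458 CPM (adjusted p = 0.46 and 0.68). BCL11A, the best known repressor of HBG1 and HBG2, had 13.2, 11.6 and 6.77 CPM (adjusted p = 0.49), and ZBTB7A had 6.89, 7.04 and 6.82 CPM (adjusted p = 0.99). ATF4, a stress response factor, had 329.9, 169.7 and 157.7 CPM (adjusted p = 0.059).

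Of the genes for haemoglobin assembly and haem handling, 13 of 13 could be tested and ALAS2, the erythroid enzyme of the first step of haem synthesis, was the single one that rose at an adjusted p under 0.01. ALAS2 had 6.47 CPM in the control, 40.5 CPM with shRBM15#1 and 33.2 CPM with shRBM15#2, a log2 fold change of 2.51 ± 0.31 (SE, adjusted p = 0.0085). HMOX1, which breaks haem down, rose at an adjusted p of 0.049, from 3.23 to 12.3 and 10.2 CPM. AHSP, the chaperone of free alpha chains, had 4, 5 and 36 reads. SLC25A37, the mitochondrial iron importer, had 177, 286 and 340 CPM (adjusted p = 0.13). The biliverdin reductases BLVRB, with 183, 162 and 141 CPM, and BLVRA, with 106, 105 and 90.4 CPM, did not pass the test (adjusted p = 0.54 and 0.84). EIF2AK1, the haem-regulated kinase, had 132, 129 and 141 CPM (adjusted p = 0.96). The median of the list was 0.40, against 0.017 over all genes.

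Markers of blood lineages were measured beside the globins, since MEG-01 cells are named as megakaryoblasts. Of the megakaryocyte markers, ITGA2B was abundant with 919, 476 and 607 CPM, while GP9 and PF4 had 2 to 5 reads in each library. The summed megakaryocyte markers were 1005 CPM in the control and 612 and 868 CPM with the shRNAs, most of it ITGA2B. Of the 9 tested markers, 7 had a log2 fold change above 0 and 6 were above the control in both lines, and the median was 0.94. TUBB1, a platelet tubulin, rose at an adjusted p under 0.01. ITGB3, the partner chain of ITGA2B, had 6.28, 17.9 and 51.8 CPM (adjusted p = 0.082), and the platelet chemokine gene PPBP had 2.38, 6.12 and 56.9 CPM (adjusted p = 0.15). The erythroid markers other than globins summed to 615 CPM in the control and to 1092 and 1376 CPM with the shRNAs, and 13 of 14 were above the control in both lines, as were 7 of the 8 tested globin genes and 39.7% of all genes. The most abundant were RHAG, of the Rh complex, with 207, 338 and 641 CPM (adjusted p = 0.14), and the carbonic anhydrase gene CA1, with 258, 355 and 378 CPM (adjusted p = 0.27). HEMGN, an erythroid nuclear factor, rose from 3.23 to 47.6 and 43.9 CPM (log2 fold change 3.82 ± 0.31, SE, adjusted p = 0.0020). HEMGN and ALAS2 were the 2 erythroid markers called at an adjusted p under 0.01, and SLC4A1, an anion exchanger of the red cell membrane, was among those that passed 0.05. Granulocyte and monocyte markers summed to 147, 74.2 and 94.4 CPM. CTSG, a granule protease, fell from 95.8 to 3.73 and 8.55 CPM, by 3.96 on the log2 scale (adjusted p = 0.0044). The other 5 tested markers of this list had log2 fold changes above 0, none of them past an adjusted p of 0.05, and the median of the 6 was 0.89. Among them LYZ, the lysozyme gene, had 35.3, 25.6 and 50.9 CPM (adjusted p = 0.90), and CSF1R, the receptor of a macrophage growth factor, had 2.71, 7.08 and 8.26 CPM (adjusted p = 0.098). Lymphoid markers summed to 1.72, 4.49 and 2.15 CPM. GP1BB found no match among the symbols, and no other marker listed was at 0 in all libraries. The part of these markers in the globin values was not tested.

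**Figure D5:**
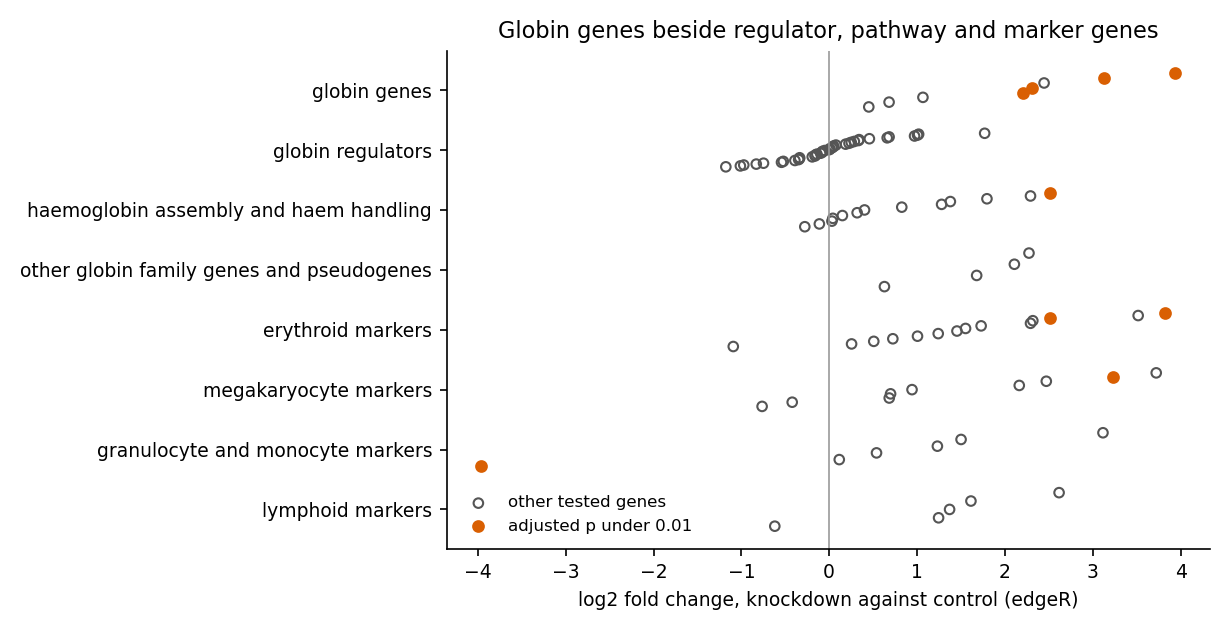
Log2 fold change, knockdown against control, of each tested gene of the globin genes and 7 lists, with filled points for an adjusted p under 0.01 (edgeR). Globin regulators lie around 0, while 4 of 8 globin genes, 2 of 14 erythroid markers and 1 gene each of the megakaryocyte, haem and granulocyte lists are filled.

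The genes most like HBE1 and HBA2 were sought among 10075 other genes whose counts summed to 1000 or more, by the distance between their 2 log2 fold changes, 1 per line. The 5 nearest to HBE1 were AMIGO2, S1PR1, TUBB1, EGLN3 and SEPTIN10, at distances of 0.157, 0.157, 0.172, 0.190 and 0.455. The 5 nearest to HBA2 were HEMGN, SLC7A8, CD36, SLC4A1 and JAML, at distances of 0.167, 0.282, 0.590, 0.914 and 0.986. HEMGN and SLC4A1 are in the list of erythroid markers, and TUBB1 is in that of megakaryocyte markers. The other genes, such as CD36, a scavenger receptor, are in no marker list used here. All fold changes compared share the control library, and the distance is over 3 libraries only.

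The list of RBM15 sites, made from the immunoprecipitated RNA, was searched for the globin genes. None of its 1515 sites carried a globin symbol or overlapped a globin bin. The site nearest to the beta cluster was 453 kb away and that nearest to the alpha cluster 4163 kb. The list holds only sites that passed the study's filter, and the labels of its 4 libraries do not divide their counts. At 0 of the 1515 sites were both libraries labelled with the RBM15 antibody above both labelled normal IgG, and at 1515 the library labelled normal IgG replicate 2 and that labelled RBM15 antibody replicate 2 were above the other two. The sites are therefore given as the authors' list, without a direction drawn from the labels. Sites were annotated to 10 of the 38 globin regulators (26.3%), and to 3.76% of the 24122 tested genes with a symbol, which include many genes with few reads. They were in introns of GATA1, TAL1, ZBTB7A, NFIX and EHMT1 and in the 3'UTR of KDM1A, HDAC1, HDAC2, CHD4 and DNMT1.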

How the data were processed

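Of the 7 samples, the 3 RNA-seq libraries were compared, 1 control and 2 knockdown. Per the methods, STAR placed the paired reads of unstranded libraries on GRCh37, and the authors deposited the raw count of every exon bin (Ensembl models). The submitters' processing notes name HTSeq 0.6.0, CASAVA 1.8.4, Picard 1.126, bedtools 2.17.0 and R 3.1.1. A deposited DEXSeq table gave the bin positions. The deposited list of RBM15 sites was used for positions, and its read counts only to set the 4 immunoprecipitated libraries, numbered in accession order within each antibody, against their labels. The counts of both sources were equal in all 625148 bins, and 809 wrapped lines were left out. The fold changes and p-values of the authors' own comparisons were not used. Lines that name no gene held 23.2% to 32.0% of all counts, in which a read on several bins enters more than once, and stayed out of library sizes.

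Bin counts were summed per gene. A read on several bins is counted on each, so gene sums exceed the number of reads, and shared reads of paired copies depend on the alignment. Symbols were found by identifier for 54481 genes. Genes whose counts summed to 30 or more were tested with edgeR 4.0.16 (R 4.3.3), TMM and the quasi-likelihood test, with Benjamini-Hochberg adjustment over 24887 genes and a limit of 0.01. TMM factors were 0.931, 1.08 and 0.996. Bins were tested with diffSpliceDGE, and DESeq2 1.42.0 served for alternatives. The edgeR tests of genes and of bins were tried on simulated data, and the DESeq2 models were not. CPM and RPKM use the effective library size and the summed bin length. The cluster ends leave out the upstream exons of HBG2. Members and lists were chosen with earlier results of these data known. Named were all globin genes, list members called at 0.01, up to 8 members a list by highest mean CPM to describe a role, and the 5 genes nearest to HBE1 and HBA2. Outside this rule, KLF1, GATA1, BCL11A, ZBTB7A, ATF4, HMOX1, AHSP, PF4, GP9, NPRL3 and the regulators with RBM15 sites were named after their values were seen. RefSeq promoters were searched on both strands. The libraries are unstranded, so overlapping and antisense genes cannot be told apart. The labels name no independent cultures beyond the different shRNAs, and the p-values measure only the spread between these libraries, which may be technical. Alternatives are given in the closing section. The values of 1 erythroid marker are not reported here.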

Additional observations from a re-analysis of the deposited data

How the results depend on the processing

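The 5 globin genes called at an adjusted p of 0.05 remained 5 in number under every alternative with a test. At 0.01 the count was 4, and 4 or 5 under the other alternatives, apart from 0 with genes of at least 300 reads and 0 with the bin that had the most reads standing for the gene, a choice made after seeing the data. Over the 8 tested genes and their alternatives, 52 of 64 log2 fold changes with a test kept direction and side of the limit, 8 no longer passed 0.01 and 4 newly passed it, all for HBA1. With 1 line left out, which leaves no test, 15 of 16 kept direction and HBD reversed, at -0.10 without the second knockdown line and 1.70 without the first. The limit of at least 1 count gave 2 of 69 globin bins by the study's limits, against 8733 of all 494487 bins. The DEXSeq-type model gave 2 of 37, against 5174 of all 234192. The summed globin level per length was 6.32-fold the control, 7.05-fold by total reads, which moved the median over all tested genes from 0.017 to 0.17 on the log2 scale, 5.83-fold by the most-read bins and 6.16-fold to 6.49-fold with 1 line left out. The embryonic share of beta-cluster reads in the knockdown lines was 43.7%, 54.0% per kilobase (39.2% in the control) and 32.6% by the most-read bins (20.6% in the control), where HBG1 reads enter both with exon 2 of HBG2 and with exon 3 of HBG1, which lowers the share. By the widest bin of exon 2 of each gene per kilobase, an alternative also chosen after seeing the data, it was 45.5% (31.1% in the control). Leaving out 1 line gave 42.6% to 44.8%. Without a count limit 15 list members were called, against 4, and 801 of all 53542 genes tested, against 86 of 24887. The cause was not tested. With 1 line left out, the relative log2 change of HBG1 exon 2 was 1.48 or 2.03. No paired analysis was possible because the groups share fewer than 2 replicate numbers. With 1 control library, neither its variation nor that of other control cultures can be estimated. HBZ and HBM had too few counted reads to be tested.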
